A study of Homo sapiens with 8 samples.

Results

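Interferon-stimulated genes are the transcripts that cells make when interferons, the secreted antiviral cytokines, bind their receptors. A named list of 48 such genes, together with the STAT and IRF factors that control them, was followed in MDA-MB-231 cells, which come from a metastasis of a human triple-negative breast tumour. All 48 were found by symbol among the 61228 genes of the deposited count table, and 45 of them were among the 15568 genes that passed a filter on low counts. The other 3, MX2, RSAD2 and CMPK2, were not tested. Polyadenylated RNA was sequenced from 8 libraries in 4 groups of 2.

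The knockout cells had been nucleofected with Cas9 and guides against ETV1, ETV4 and ETV5, the PEA3 group of ETS transcription factors, and were grown in collagen I gels or as monolayers. The control gels held cells given Cas9 with control guides. The label of the control monolayers names control guides alone, and the sources used here do not say whether Cas9 was given to those cells too. An effect of Cas9 itself therefore cannot be told apart from the knockout in monolayers. Gels against monolayers in control cells, and the difference in knockout effect between cultures, also use these control monolayers and share this limit. Collagenase I freed the cells from the gels at 37 °C before lysis and monolayers were lysed directly, so culture and harvest cannot be told apart either. The sources used here do not say whether the knockout cells were a pool or clones, or whether replicate libraries are from separate cultures. They also do not say which collagen I concentration each gel sample had. A difference in it between gels therefore cannot be told apart from the knockout in gels.

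Type I interferons act through the receptor chains IFNAR1 and IFNAR2 and the kinases JAK1 and TYK2, which activate a complex of STAT factors with IRF9. That complex binds the interferon-stimulated response element in promoters, and IRF1, IRF3 and IRF7 can bind similar sequences. Cells can start the response themselves when sensors such as IFIH1 or CGAS detect RNA or DNA in the cytoplasm, and several tumour lines keep part of it active without added interferon.

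Promoters were read to show what this element looks like in genes that did and did not change. The RefSeq promoter table (GRCh38.p14) held 39 of the 48 members. It lacked OASL and IFIT2, which were higher in both cultures, and OAS2, MX2, IFITM2, IRF7, DHX58, USP18 and TRIM22. The element was searched as GAAA, any 2 bases and GAAA again, on both strands from 250 bases before to 50 bases after each start. It was present in 27 of these 39 genes (69.2%), against 1195 of all 27305 genes in the table (4.38%). Below are ISG15, IFIT1 and IFI44L, which were higher in the knockout cells of both cultures, and IFIT5 and BST2, which passed in neither. Each window runs from 250 bases before to 9 bases after the start, on the gene's own strand, with the matches in capitals.
ISG15, chr1:1013247-1013506, plus strand: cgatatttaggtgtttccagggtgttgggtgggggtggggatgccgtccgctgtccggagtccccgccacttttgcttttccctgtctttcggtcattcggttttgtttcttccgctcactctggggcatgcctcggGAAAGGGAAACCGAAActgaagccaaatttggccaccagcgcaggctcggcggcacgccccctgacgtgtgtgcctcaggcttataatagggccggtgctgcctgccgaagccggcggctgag
IFIT1, chr10:89392373-89392632, plus strand: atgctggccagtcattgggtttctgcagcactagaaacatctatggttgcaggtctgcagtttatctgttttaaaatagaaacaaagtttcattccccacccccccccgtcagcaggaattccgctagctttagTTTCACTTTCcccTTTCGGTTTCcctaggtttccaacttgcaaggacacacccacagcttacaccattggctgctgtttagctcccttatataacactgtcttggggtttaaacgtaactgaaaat
IFI44L, chr1:78620198-78620457, plus strand: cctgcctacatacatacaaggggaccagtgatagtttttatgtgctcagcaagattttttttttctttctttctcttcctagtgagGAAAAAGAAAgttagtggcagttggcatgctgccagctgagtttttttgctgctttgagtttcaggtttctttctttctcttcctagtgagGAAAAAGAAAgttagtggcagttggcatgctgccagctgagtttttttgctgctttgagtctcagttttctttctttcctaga
IFIT5, chr10:89414318-89414577, plus strand: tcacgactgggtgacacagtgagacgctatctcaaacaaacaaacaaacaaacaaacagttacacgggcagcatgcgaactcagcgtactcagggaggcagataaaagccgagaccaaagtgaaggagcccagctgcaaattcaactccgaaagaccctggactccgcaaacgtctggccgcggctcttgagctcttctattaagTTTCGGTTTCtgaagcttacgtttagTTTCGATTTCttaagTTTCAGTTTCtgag
BST2, chr19:17405621-17405880, minus strand: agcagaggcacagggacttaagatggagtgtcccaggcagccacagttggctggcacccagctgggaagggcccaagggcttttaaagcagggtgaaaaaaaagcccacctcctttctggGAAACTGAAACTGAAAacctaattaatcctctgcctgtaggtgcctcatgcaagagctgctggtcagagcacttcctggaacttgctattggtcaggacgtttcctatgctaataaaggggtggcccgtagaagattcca
The matches of ISG15 overlap each other, as do those of BST2, while IFIT5 has 3 separate ones close to its start. A match was present in 8 of 11 genes higher in both cultures (72.7%), in 6 of 8 called in 1 culture (75%) and in 12 of 18 called in neither (66.7%). The untested RSAD2 also had a match. The 8 called in 1 culture, in either direction, include UBE2L6, ISG20 and LGALS3BP, which were lower in knockout gels. Of these, ISG20 and LGALS3BP had a match. The gamma-interferon motif TTCNNNGAA was present in 12 of the 39 members (30.8%), against 9.38% of all genes, in 2 of 11 higher in both cultures, 0 of 8 called in 1 culture and 10 of 18 called in neither. The ETS motif CCGGAAG was present in 5 members (12.8%), against 12.2% of all genes, in 1 of the 11, 2 of the 8 and 0 of the 18. The other 2 were the untested neighbours RSAD2 and CMPK2, which lie on opposite strands and share a match at the same bases. The response-element matches of PARP9 and DTX3L, both called in neither culture, also lie at the same bases. These are matches of letters and not measured binding sites.

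Library totals ran from 15824504 to 23896899 counts. Levels are given in CPM, which are counts relative to the scaled size of the library, and changes as log2 fold changes ± SE. Adjusted p values are from edgeR's quasi-likelihood test over all tested genes, and a gene was called where its adjusted p was under 0.05. As a check of the labels, ETV1 had 138 and 141 CPM in knockout gels against 221 and 217 CPM in control gels, and 136 and 151 CPM in knockout monolayers against 200 and 205 CPM in control monolayers (log2 -0.66 and -0.50). ETV4 was also lower in both cultures (log2 -0.57 and -0.45). ETV5 had 117 and 115 CPM in knockout gels and 119 and 110 CPM in control gels, and 117 and 117 CPM in knockout monolayers and 112 and 118 CPM in control monolayers, and was not called (log2 0.02 and 0.03, adjusted p = 0.808 and 0.718). The ETV5 transcript level thus did not show its knockout, and the edits and proteins of the 3 genes were not measured, so knockout is used here as the labels' name for these cells. Of 9 leukocyte markers, only CD14 and LYZ reached 1 CPM on average, NCAM1 was at 0, and the summed level was 3.08 to 3.12 CPM in knockout gels, 6.96 to 8.34 in control gels, 4.77 to 4.85 in knockout monolayers and 5.65 to 6.52 in control monolayers. Of 5 markers of plasmacytoid dendritic cells, the blood cells that make most interferon, CLEC4C, LILRA4 and GZMB were at 0. IL3RA had 0.00776 CPM on average, but TCF4 had 13.2 CPM. The summed level of this list was 10.9 to 11.2 CPM in knockout gels and 12.1 to 13.3 in control gels. In monolayers it was 14.1 to 15.3 CPM in knockout cells and 13.6 to 14.9 in control cells. In bulk RNA, a change in the number of responding cells and a change in RNA per cell cannot be told apart.

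In the knockout gels 16 of the 45 tested members were higher and 3 lower than in control gels, which is 35.6% and 6.67%, against 11.5% higher and 12.4% lower of all tested genes. In the knockout monolayers 16 were again higher (35.6%) and 0 lower, against 9.6% higher and 9.6% lower of all genes. For that count of 0, edgeR gave 1 member an unadjusted p under 0.05 with a lower level, and DESeq2 also called 0. The members were chosen with earlier results of these data known, so these shares are not an independent test of the list. The median log2 change of the members was 0.11 in gels, where the median of all genes was 0.00, and 0.20 in monolayers, where it was 0.01. The single changes ran from -0.95 to 1.88 in gels and from -0.42 to 2.09 in monolayers. In gels both knockout libraries lay above both control libraries in 25 members and below in 11, and in monolayers in 29 and 3. Lack of overlap between groups of 2 libraries is thus more frequent than a call and adds no separate evidence to it. Its share over all genes was not computed, so these counts are not read as a result about the members.

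The 2 knockout comparisons share no library. The members higher in both cultures numbered 13, which is 81.2% of the 16 in gels and 81.2% of the 16 in monolayers. Over all tested genes, 658 were higher in both (4.23%), which is 36.8% of those higher in gels and 44% of those higher in monolayers. The 13 were OASL, IFIT1, IFIT2, IFIT3, ISG15, HERC5, HERC6, IFI44, IFI44L, GBP1, IRF1, SP110 and SAMD9. ADAR, EIF2AK2 and IFIH1 were called higher in gels only, and IFI6, IFITM3 and OAS2 in monolayers only, but none of these 6 passed the test of the difference between cultures. UBE2L6, ISG20 and LGALS3BP were called lower in gels, and the other 23 tested members were called in neither culture.

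**Figure D1:**
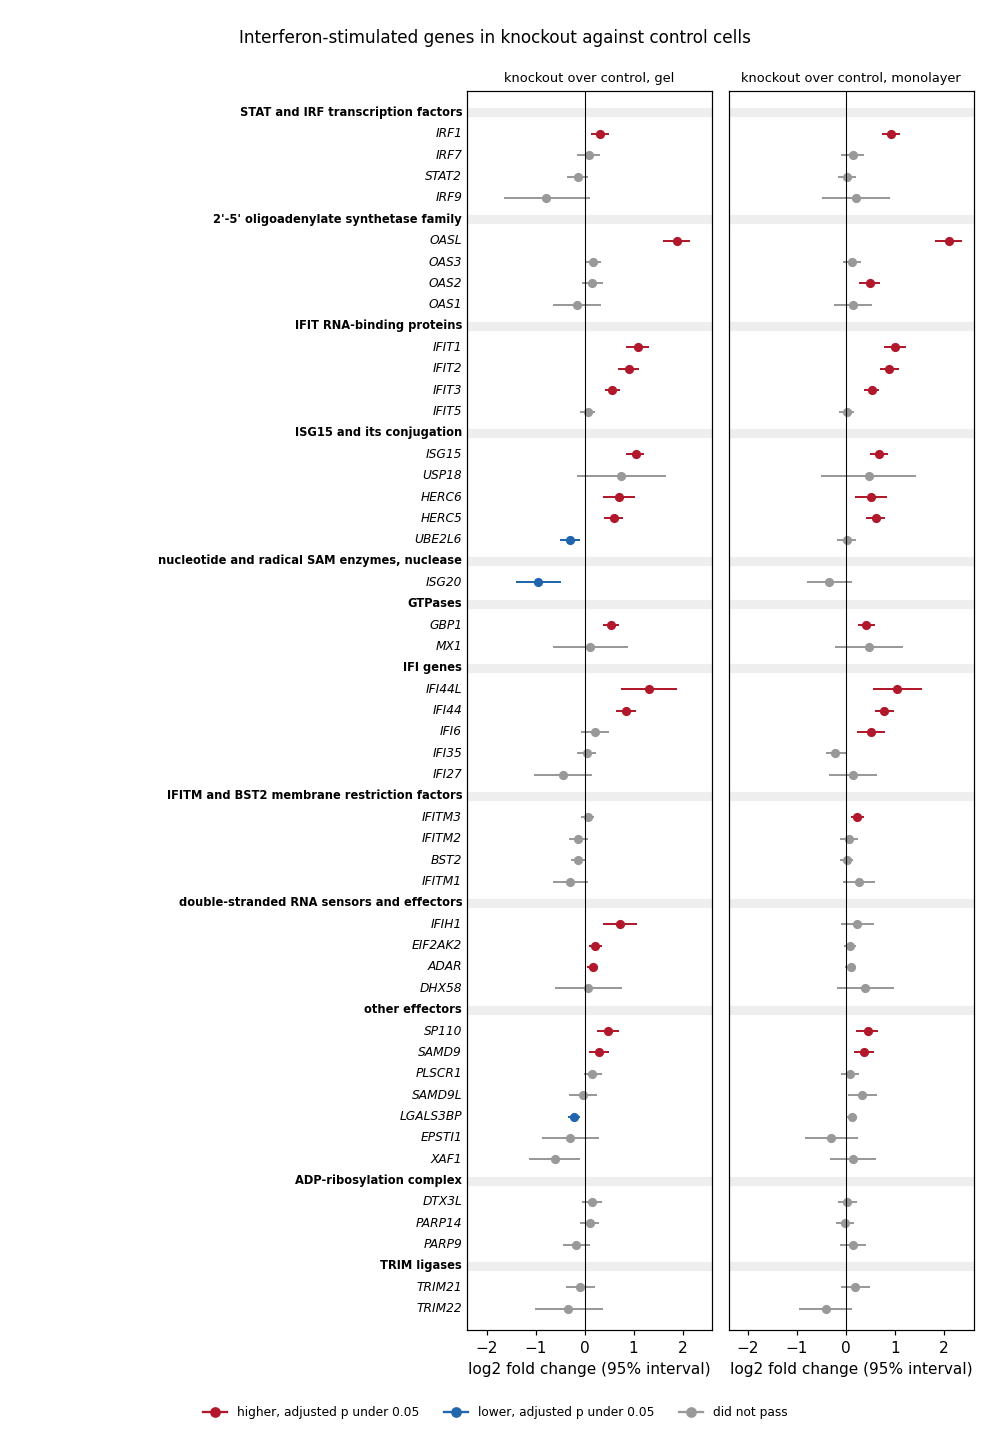
Log2 fold change of knockout over control for the 45 tested members (horizontal axis; points with 95% intervals), in collagen gels and in monolayers, with members down the page. OASL stands farthest to the right in both cultures at 1.88 and 2.09, and ISG20 farthest to the left in gels at -0.95.

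The 10 interferon genes examined were next to absent. They included IFNB1, 3 IFNA genes and IFNG, and the other IFNA genes were not examined. Of the 10, 9 had 0 counts in all 8 libraries, which allows up to 3 counts or 0.121 to 0.186 CPM in a library. IFNL1, a type III interferon, had 1 count in a single knockout monolayer library. Transcription of an interferon gene at or below this depth was therefore not detectable.

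The receptors and their kinases were present, and 1 of the 9 tested was called with the knockout, higher in monolayers. Of all tested genes, 9.6% were higher and 9.6% lower in monolayers, and 11.5% and 12.4% in gels. IFNAR1, a chain of the type I receptor, had 58.6 and 55.9 CPM in knockout monolayers, against 44.6 and 47.8 CPM in control monolayers. The 2 groups did not overlap (log2 0.31 ± 0.066, adjusted p = 0.000682), although the call was lost without control monolayer 1 (adjusted p = 0.0513). In gels IFNAR1 had 59.0 and 62.5 CPM in knockout cells and 56.9 and 57.1 CPM in control cells (adjusted p = 0.322). None of the 9 passed in gels, where edgeR gave 1 an unadjusted p under 0.05 and DESeq2 called 0.

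Of 11 tested nucleic acid sensors, adaptors and kinases outside the list of members, 3 were higher in knockout monolayers, and 1 was higher and 1 lower in knockout gels. The shares over all tested genes were 9.6% higher in monolayers, and 11.5% higher and 12.4% lower in gels. The counts in gels are thus near the shares of all genes. AIM2, a sensor of cytoplasmic DNA that builds inflammasomes, had 7.19 and 7.53 CPM in knockout monolayers, against 3.38 and 3.54 CPM in control monolayers (log2 1.09 ± 0.18, adjusted p = 1.84e-05). In gels AIM2 had 4.22 and 5.05 CPM in knockout cells and 4.13 and 3.02 CPM in control cells (adjusted p = 0.17). CGAS, the DNA sensor that makes a cyclic dinucleotide, was higher in both cultures, by 0.29 in gels (adjusted p = 0.00168) and 0.24 in monolayers (adjusted p = 0.0142). STING1, the receptor of that dinucleotide, had 25.0 and 24.0 CPM in knockout gels, below the 33.0 and 31.9 CPM of control gels (log2 -0.41 ± 0.082, adjusted p = 0.000274), and did not pass in monolayers (log2 -0.04). TLR3, an endosomal sensor of double-stranded RNA, was higher in knockout monolayers (log2 0.51, adjusted p = 0.00946). None of the 11 passed edgeR's test of the difference between cultures, although 4 had an unadjusted p under 0.05, and DESeq2 called 0. The adjusted p was 0.0509 for STING1, 0.095 for AIM2 and 0.231 for TLR3. STING1 passed with upper-quartile factors (0.0464), a stricter filter (0.0395) and a replicate block (0.0357). The CGAS call in gels was lost without control gel 2 (adjusted p = 0.0879). In monolayers the CGAS and TLR3 calls were lost by DESeq2 (adjusted p = 0.0624 and 0.0713), without knockout monolayer 2 (0.0902 and 0.0805) and without control monolayer 1 (0.214 and 0.217), and that of CGAS also without knockout monolayer 1 (0.0639).

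Of the 4 factors in the list, only IRF1 was called with the knockout. IRF1, a transcription factor that both interferons and inflammatory cytokines induce, had 42.6 and 42.3 CPM in knockout gels, against 36.7 and 31.2 CPM in control gels. In knockout monolayers it had 46.6 and 43.9 CPM, against 24.3 and 23.3 CPM in control monolayers. Both knockout groups lay wholly above their controls, and the lowest group was the control monolayers. The log2 change was 0.32 ± 0.077 in gels (adjusted p = 0.00215) and 0.92 ± 0.080 in monolayers (adjusted p = 6.55e-11). Without control gel 2 the change in gels was 0.21 and no longer called (adjusted p = 0.138).

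STAT2, the STAT that is particular to the type I and III interferon complex, had 51.6 and 42.1 CPM in knockout gels and 49.9 and 53.7 CPM in control gels, and 73.9 and 68.1 CPM in knockout monolayers and 74.3 and 65.0 CPM in control monolayers. The groups overlapped within each culture. Its log2 change was -0.14 in gels (95% interval -0.33 to 0.04) and 0.02 in monolayers (-0.15 to 0.19). Without knockout gel 1 the change in gels was -0.28 and was called lower (adjusted p = 0.0183). IRF7, which amplifies interferon transcription, lay between 13.5 and 17.0 CPM in every library and changed by 0.08 and 0.14 (adjusted p = 0.622 and 0.409).

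IRF9, the DNA-binding partner of the STATs, was a low transcript with 10 and 12 counts in knockout gels, 25 and 15 in control gels, 28 and 25 in knockout monolayers and 41 and 14 in control monolayers. Its change in gels had a wide interval (log2 -0.78, -1.63 to 0.08, adjusted p = 0.188). Its exons share 1838 bases with a neighbour on the same strand in GENCODE 29, so its counts are uncertain. Of 6 other IRF genes, 3 were tested and none passed with the knockout in either culture. By edgeR 1 of these 3 had an unadjusted p under 0.05 in monolayers and 0 in gels, and DESeq2 called 0 in both.

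**Figure D2:**
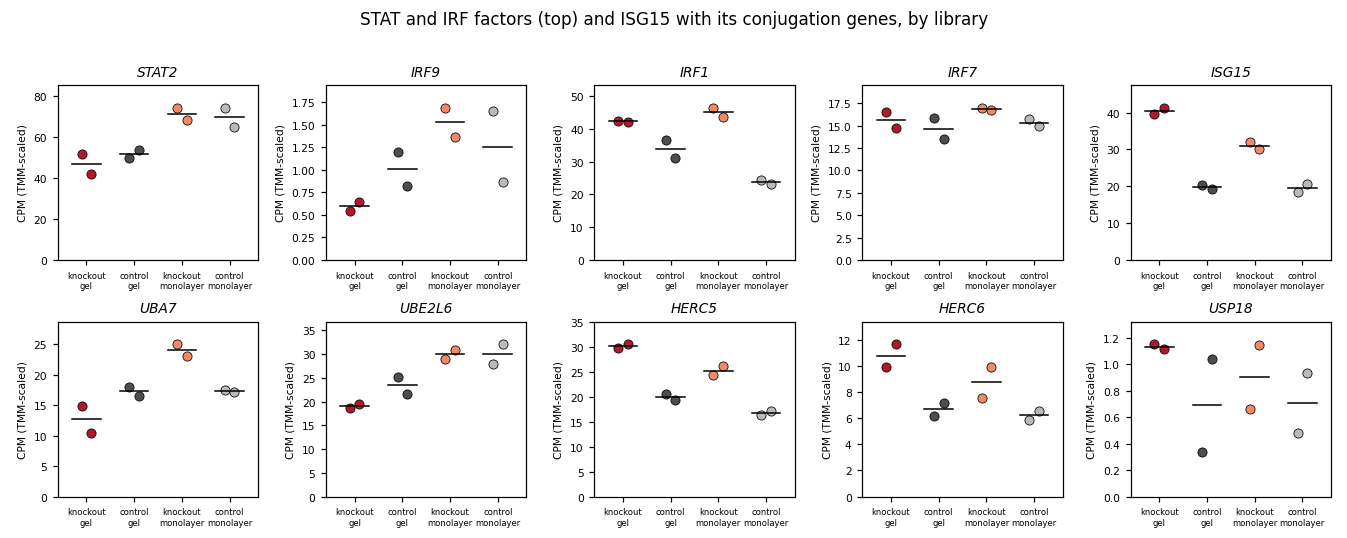
CPM in each library (vertical axis) for the STAT and IRF factors and for ISG15 with its conjugation genes, in knockout gels, control gels, knockout monolayers and control monolayers (points are libraries, bars are means). IRF1 and ISG15 lie higher in knockout than in control libraries in both cultures, while STAT2 overlaps within each culture.

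OASL showed the largest changes. It belongs to the oligoadenylate synthetase family but lacks the enzyme activity, and it is known to enhance RNA sensing. It had 28.0 and 23.2 CPM in knockout gels, against 7.35 and 6.53 CPM in control gels, and 23.2 and 25.5 CPM in knockout monolayers, against 5.11 and 6.58 CPM in control monolayers. Knockout and control libraries stood far apart in both cultures, with no overlap (log2 1.88 ± 0.12, adjusted p = 3.64e-14, and 2.09 ± 0.13, adjusted p = 1.25e-14). The enzymes of the family, which make the activator of RNase L, moved less. OAS2 had 20.9 and 22.7 CPM in knockout monolayers, above the 15.2 and 16.3 CPM of control monolayers (log2 0.48 ± 0.096, adjusted p = 0.000337). In gels it had 18.3 and 18.3 CPM in knockout cells and 15.8 and 17.1 CPM in control cells (log2 0.16, adjusted p = 0.243). OAS1 and OAS3 were not called in either culture, with log2 changes of -0.16 and 0.17 in gels and 0.14 and 0.12 in monolayers. With a length and GC correction OAS3 passed in gels (adjusted p = 0.00734).

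Of the IFIT genes, whose products bind foreign RNA ends and block translation, 3 of 4 rose in both cultures. Of all tested genes, 4.23% were higher in both. IFIT1, which binds RNA caps that lack a methyl group, had 19.95 and 23.12 CPM in knockout gels, against 10.3 and 9.99 CPM in control gels, and 23.3 and 24.3 CPM in knockout monolayers, against 12.2 and 11.5 CPM in control monolayers. No knockout library of IFIT1 overlapped a control library of the same culture (log2 1.08 ± 0.11, adjusted p = 5.58e-10, and 1.00 ± 0.10, adjusted p = 2.38e-09). IFIT2 had 31.3 and 33.4 CPM in knockout gels, against 16.2 and 18.7 CPM in control gels, and 38.8 and 42.5 CPM in knockout monolayers, against 23.3 and 20.5 CPM in control monolayers. Its change was 0.90 ± 0.090 in gels and 0.88 ± 0.085 in monolayers (adjusted p = 1.38e-09 and 7.2e-10). IFIT3, the partner that stabilises IFIT1, had 69.2 and 67.5 CPM in knockout gels, against 45.6 and 46.9 CPM in control gels, and 61.3 and 68.3 CPM in knockout monolayers, against 43.8 and 47.1 CPM in control monolayers. IFIT2 and IFIT3 likewise showed no overlap in either culture, and IFIT3 rose by 0.56 ± 0.067 and 0.52 ± 0.067 (adjusted p = 4.36e-08 and 3.58e-07).

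IFIT5, which has 3 matches of the response element in the window printed above, stood apart from its family. It had 40.1 and 42.5 CPM in knockout gels and 39.5 and 39.6 CPM in control gels, and 43.5 and 46.0 CPM in knockout monolayers and 45.2 and 43.8 CPM in control monolayers. Its log2 change was 0.06 in gels (95% interval -0.08 to 0.20) and 0.01 in monolayers (-0.13 to 0.15), and both intervals lie below the changes of the other 3 IFIT genes. The counts of OAS, IFIT and IFITM genes are uncertain to the extent that reads were split among similar family members.

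**Figure D3:**
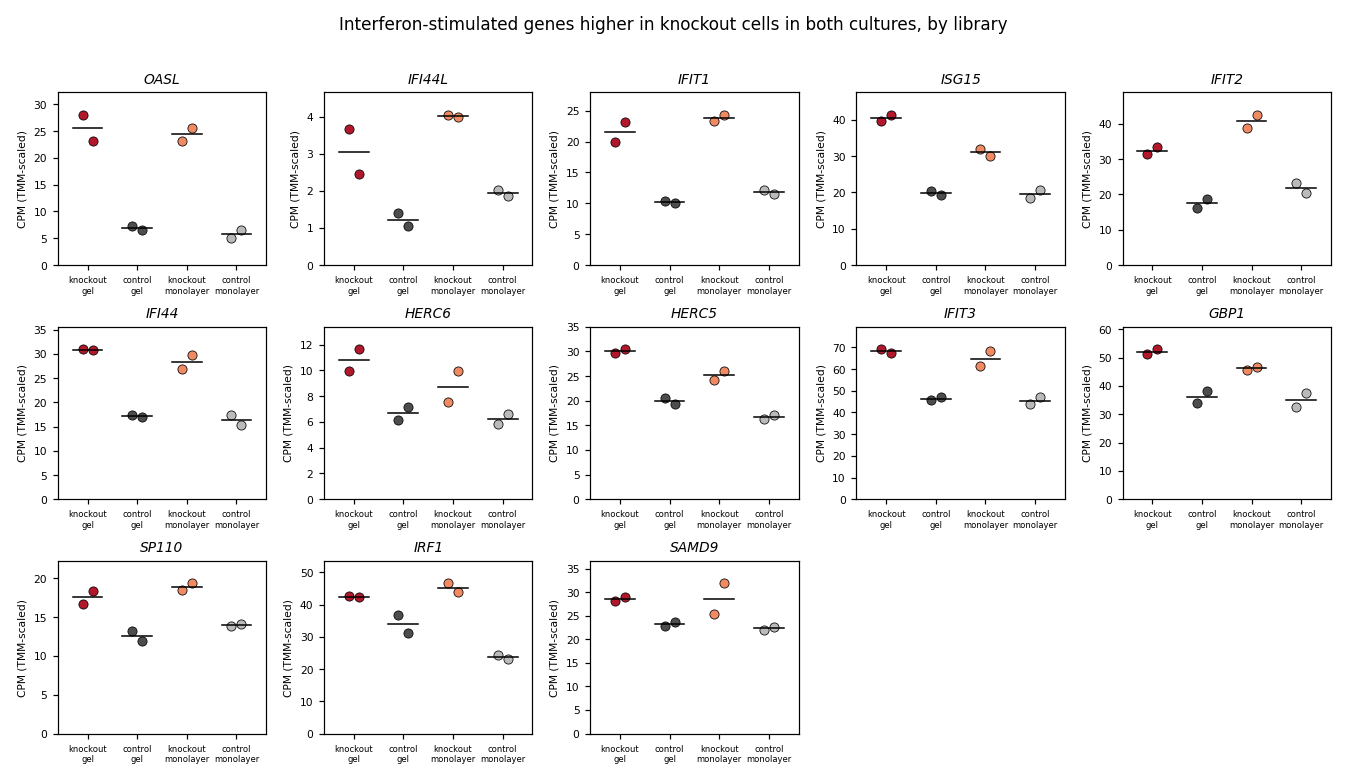
CPM in each library (vertical axis, a panel per gene) of the 13 members called higher in knockout cells of both cultures, in knockout gels, control gels, knockout monolayers and control monolayers (points are libraries, bars are means). OASL shows the widest gap between knockout and control libraries.

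ISG15 is a protein related to ubiquitin that is attached to other proteins by UBA7, UBE2L6 and HERC5 and removed by USP18. ISG15 had 39.7 and 41.4 CPM in knockout gels, against 20.3 and 19.3 CPM in control gels, and 31.9 and 30.2 CPM in knockout monolayers, against 18.6 and 20.7 CPM in control monolayers. The knockout gels were highest and the control groups lay close together. The log2 change was 1.04 ± 0.082 in gels (adjusted p = 4.22e-12) and 0.67 ± 0.085 in monolayers (adjusted p = 2.3e-07). The difference between these, 0.37, did not pass (adjusted p = 0.0561), but passed with DESeq2 size factors (0.0455), with library size alone (0.0422), with a length and GC correction (0.00487), without knockout gel 1 (0.0307) and without control monolayer 1 (0.0351).

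The enzymes of ISG15 conjugation did not move together. HERC5, the main ligase, had 29.8 and 30.5 CPM in knockout gels, against 20.6 and 19.3 CPM in control gels, and 24.3 and 26.1 CPM in knockout monolayers, against 16.2 and 17.2 CPM in control monolayers. It rose by 0.59 ± 0.085 and 0.60 ± 0.090, with no overlap (adjusted p = 1.77e-06 and 4.73e-06). Its relative HERC6 had 9.92 and 11.6 CPM in knockout gels, against 6.15 and 7.19 CPM in control gels, and 7.55 and 9.93 CPM in knockout monolayers, against 5.88 and 6.58 CPM in control monolayers. HERC6 rose by 0.70 ± 0.15 in gels (adjusted p = 0.000454) and 0.51 ± 0.15 in monolayers (adjusted p = 0.0168), and the call in monolayers was lost by DESeq2 (adjusted p = 0.1), without knockout monolayer 2 (log2 0.29, adjusted p = 0.356) and without control monolayer 1 (log2 0.40, adjusted p = 0.202). UBE2L6, the conjugating enzyme, had 18.7 and 19.5 CPM in knockout gels, below the 25.2 and 21.7 CPM of control gels (log2 -0.30 ± 0.094, adjusted p = 0.0191), and its log2 change in monolayers was 0.01. That call was lost without knockout gel 1 (adjusted p = 0.119), without control gel 1 (log2 -0.18, adjusted p = 0.348) and by DESeq2 (adjusted p = 0.0963). USP18 had 7 to 21 counts in a library and was not called (adjusted p = 0.227 and 0.553).

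UBA7, the activating enzyme, is not a member of the list but completes the chain. It had 14.9 and 10.5 CPM in knockout gels, below the 18.0 and 16.6 CPM of control gels, and 25.0 and 23.0 CPM in knockout monolayers, above the 17.4 and 17.2 CPM of control monolayers. It was called in opposite directions, by -0.45 ± 0.12 in gels (adjusted p = 0.00514) and 0.47 ± 0.11 in monolayers (adjusted p = 0.00213). The call in gels was lost without knockout gel 2 (log2 -0.23, adjusted p = 0.24) and without control gel 1 (adjusted p = 0.0886) and was -0.70 without knockout gel 1. The call in monolayers was lost without knockout monolayer 1 (adjusted p = 0.0546).

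Of the 4 members that sense, bind or edit double-stranded RNA, 3 rose in gels and none was called in monolayers, where the smallest unadjusted p of edgeR among them was 0.0655 and DESeq2 also made no call. Of all tested genes, 11.5% were higher in gels and 9.6% in monolayers. None of the 4 passed the test of the difference between cultures. IFIH1, the sensor MDA5, had 6.74 and 8.45 CPM in knockout gels, against 5.04 and 4.17 CPM in control gels (log2 0.72 ± 0.16, adjusted p = 0.00114). EIF2AK2, the kinase PKR, had 107 and 109 CPM in knockout gels, against 92.6 and 92.6 CPM in control gels (log2 0.22 ± 0.053, adjusted p = 0.00202). ADAR, which turns adenosine into inosine in double-stranded RNA, had 230 and 244 CPM in knockout gels, against 209 and 213 CPM in control gels (log2 0.17 ± 0.047, adjusted p = 0.0074). In all 3 genes the knockout gels lay above the control gels without overlap. In monolayers their changes were 0.23, 0.08 and 0.09, and with a length and GC correction those of EIF2AK2 and ADAR were called (log2 0.17 and 0.16, adjusted p = 0.0123 and 0.00929). The IFIH1 call was lost without knockout gel 2 (adjusted p = 0.0626). The ADAR call was lost without knockout gel 2 (adjusted p = 0.185), control gel 1 (0.105) or control gel 2 (0.0555). DHX58, a regulator of these sensors, changed by 0.07 in gels and 0.39 in monolayers and did not pass.

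Among other induced proteins, IFI44 and IFI44L, paralogs that lie side by side on chromosome 1, rose in both cultures. IFI44 had 31.0 and 30.8 CPM in knockout gels, against 17.4 and 16.9 CPM in control gels, and 26.9 and 29.7 CPM in knockout monolayers, against 17.4 and 15.3 CPM in control monolayers (log2 0.85 ± 0.089 and 0.78 ± 0.090, adjusted p = 3.4e-09 and 3.89e-08). IFI44L was far lower, with 3.671 and 2.445 CPM in knockout gels, against 1.39 and 1.04 CPM in control gels, and 4.05 and 3.98 CPM in knockout monolayers, against 2.01 and 1.86 CPM in control monolayers. Its changes were 1.31 ± 0.27 and 1.04 ± 0.24 (adjusted p = 0.000401 and 0.00142). IFI6, a mitochondrial and endoplasmic reticulum protein, had 13.3 and 11.1 CPM in knockout monolayers, above the 8.211 and 8.997 CPM of control monolayers (log2 0.51 ± 0.13, adjusted p = 0.00365), and changed by 0.22 in gels (adjusted p = 0.238). The IFI6 call was lost without knockout monolayer 1 (log2 0.37, adjusted p = 0.132) or control monolayer 1 (log2 0.42, adjusted p = 0.0903). IFI27 and IFI35 were not called with the knockout.

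GBP1, a GTPase that coats intracellular bacteria, had 51.3 and 52.9 CPM in knockout gels, against 33.9 and 38.0 CPM in control gels, and 45.7 and 46.6 CPM in knockout monolayers, against 32.5 and 37.4 CPM in control monolayers. It rose by 0.54 ± 0.075 in gels and 0.41 ± 0.076 in monolayers (adjusted p = 8.96e-07 and 0.000129). MX1, the GTPase that blocks influenza virus, had only 17 to 29 counts in a library and was not called (log2 0.11 and 0.46, adjusted p = 0.861 and 0.368). The untested MX2 had 2 and 4 counts in knockout gels, 1 and 2 in control gels, 6 and 8 in knockout monolayers and 1 and 2 in control monolayers. RSAD2, the antiviral enzyme viperin, had at most 3 counts in a library, and CMPK2 had 0 in all.

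SP110, a nuclear body protein, had 16.7 and 18.4 CPM in knockout gels, against 13.2 and 11.96 CPM in control gels, and 18.5 and 19.4 CPM in knockout monolayers, against 13.9 and 14.1 CPM in control monolayers (log2 0.48 ± 0.10 and 0.44 ± 0.10, adjusted p = 0.000716 and 0.00179). SAMD9, an inhibitor of poxviruses, had 28.2 and 29.1 CPM in knockout gels, against 23.0 and 23.7 CPM in control gels, and 25.4 and 31.9 CPM in knockout monolayers, against 22.1 and 22.7 CPM in control monolayers. Knockout libraries of both genes lay above the controls of the same culture, and SAMD9 rose by 0.30 ± 0.090 and 0.36 ± 0.091 (adjusted p = 0.0144 and 0.00377). The SAMD9 call in gels was lost by DESeq2 (adjusted p = 0.0584) and without knockout gel 2 (0.096), control gel 1 (0.117) or control gel 2 (0.0598). In monolayers it was lost without knockout monolayer 2 (log2 0.19, adjusted p = 0.26) or control monolayer 1 (adjusted p = 0.061). Its neighbour and paralog SAMD9L did not pass (log2 -0.03 and 0.32, adjusted p = 0.911 and 0.0907). With a length and GC correction SAMD9L passed in monolayers.

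Of the 4 membrane restriction factors, 1 was called with the knockout, higher in monolayers, where 9.6% of all tested genes were higher. IFITM3, which blocks fusion of viruses in endosomes, had 139 and 136 CPM in knockout monolayers, above the 112 and 123 CPM of control monolayers (log2 0.23 ± 0.054, adjusted p = 0.00215), and this call was lost without control monolayer 1 (log2 0.15, adjusted p = 0.146). In gels it had 117 and 121 CPM in knockout cells and 116 and 112 CPM in control cells (adjusted p = 0.433). BST2, also called tetherin, whose promoter is printed above, had 82.6 and 84.9 CPM in knockout gels and 92.9 and 90.8 CPM in control gels and did not pass (log2 -0.13, adjusted p = 0.0786), and it changed by 0.01 in monolayers. With upper-quartile factors and with a stricter filter on low counts, BST2 did pass in gels. IFITM1, at 4.16 to 7.74 CPM in single libraries, and IFITM2 were not called with the knockout and share 351 exon bases with each other.

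The 3 members lower in knockout gels were UBE2L6, ISG20 and LGALS3BP. ISG20, an exonuclease that degrades single-stranded RNA, had 2.69 and 1.81 CPM in knockout gels, below the 4.47 and 4.17 CPM of control gels (log2 -0.95 ± 0.22, adjusted p = 0.00137), and 2.72 and 3.05 CPM in knockout monolayers, below the 3.50 and 3.91 CPM of control monolayers, where it did not pass (log2 -0.34, adjusted p = 0.291). The ISG20 call was lost without knockout gel 2 (log2 -0.69, adjusted p = 0.0603). LGALS3BP, a secreted galectin-binding protein, had 410 and 403 CPM in knockout gels, below the 466 and 476 CPM of control gels (log2 -0.21 ± 0.049, adjusted p = 0.00136). In monolayers it had 461 and 456 CPM in knockout cells and 400 and 453 CPM in control cells, which did not pass (log2 0.11, adjusted p = 0.131) except without control monolayer 2 (log2 0.20, adjusted p = 0.00413).

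The ubiquitin ligases TRIM21 and TRIM22, the ADP-ribosylation genes PARP9, PARP14 and DTX3L, and XAF1, EPSTI1 and PLSCR1 were not called with the knockout in either culture. Their log2 changes ran from -0.61 for XAF1 to 0.16 for PLSCR1 in gels, and from -0.42 for TRIM22 to 0.19 for TRIM21 in monolayers. XAF1 was called lower in gels without knockout gel 1 (log2 -0.92, adjusted p = 0.0291) and without control gel 2 (log2 -0.83, adjusted p = 0.0454). XAF1, TRIM22 and EPSTI1 were low transcripts, at 1.06 to 4.20 CPM in single libraries.

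Of 10 genes of feedback and other steps of the pathway, 3 were higher and 3 lower in knockout gels, and 3 higher and 1 lower in knockout monolayers. The shares over all tested genes were 11.5% higher and 12.4% lower in gels, and 9.6% and 9.6% in monolayers. SOCS3, an inhibitor of cytokine receptors that signal through STAT3, had 38.6 and 40.2 CPM in knockout gels, below the 53.5 and 53.5 CPM of control gels (log2 -0.44 ± 0.070, adjusted p = 8.74e-06). It was also lower in knockout monolayers, with 45.6 and 43.2 CPM against 49.1 and 54.2 CPM in control monolayers (log2 -0.21, adjusted p = 0.0267), a call lost by DESeq2 (adjusted p = 0.0902) and without knockout monolayer 2 (0.214) or control monolayer 2 (0.265). SAMHD1, which breaks down the deoxynucleotides that retroviruses need, had 95.7 and 96.0 CPM in knockout gels, above the 72.8 and 72.4 CPM of control gels (log2 0.40 ± 0.060, adjusted p = 3.73e-06). In monolayers it had 72.9 and 64.5 CPM in knockout cells and 67.2 and 64.7 CPM in control cells (adjusted p = 0.607). PTPN2, a phosphatase of the receptor kinases, was higher in knockout gels (log2 0.21), PML, the scaffold of nuclear bodies, was lower there (log2 -0.18, adjusted p = 0.044), and IRF2BP2, a partner of IRF2, was higher in knockout monolayers (log2 0.19). These small calls were lost without several single libraries. The log2 change was 0.20 for PTPN2 without control gel 2, -0.08 for PML without knockout gel 2 and 0.15 for IRF2BP2 without control monolayer 1. The PML call was also lost by DESeq2 (adjusted p = 0.147), with DESeq2 size factors (0.0562) and with library size alone (0.0527). It was lost too with no filter on low counts (0.0551) and with a length and GC correction (0.379). That correction called PML higher in knockout monolayers (log2 0.17, adjusted p = 0.0288). SOCS1, the main inhibitor of the interferon receptor kinases, was a low transcript at 0.878 to 3.22 CPM. Its calls in both cultures (log2 0.83 and 0.79, adjusted p = 0.044 and 0.0283) were lost by DESeq2 (adjusted p = 0.153 and 0.181), without either library of the gel groups (0.0578 to 0.287) and without knockout monolayer 2 (0.258), control monolayer 1 (0.19) or control monolayer 2 (0.0635).

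The difference between the knockout effect in gels and that in monolayers was tested for each member. It passed for 2 of 45, both of them lower in gels (4.44%), against 2.67% of all genes higher and 3.94% lower, while 0 were higher. For that 0, edgeR gave 2 members an unadjusted p under 0.05 with a larger effect in gels, and DESeq2 also called 0. For IRF1 the difference was -0.60 ± 0.11 (adjusted p = 0.000434), and among the control libraries given above the gels lay higher than the monolayers. For LGALS3BP it was -0.32 ± 0.069 (adjusted p = 0.00282), and it was lost without control monolayer 1 (log2 -0.20, adjusted p = 0.073) and with a length and GC correction (log2 -0.17, adjusted p = 0.153).

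Gels were then set against monolayers. In knockout cells 5 members were higher and 17 lower in gels (11.1% and 37.8%), against 20.1% higher and 17.9% lower of all genes. DESeq2 called 2 higher and 10 lower, and there were 2 and 11 without knockout gel 2, 3 higher without knockout monolayer 1 and 11 lower without knockout monolayer 2. In control cells 4 were higher and 7 lower (8.89% and 15.6%), against 16% higher and 10.7% lower of all genes. There were 2 higher by DESeq2 and without control gel 1 or control monolayer 1, 2 higher and 3 lower without control gel 2, and 4 lower without control monolayer 2. The balance over all genes turned with the scaling. In knockout cells it was 3122 higher and 2793 lower, but 2293 and 3360 with upper-quartile factors and 2089 and 3539 with library size alone. In control cells it was 2486 and 1672, but 1699 and 2213 with upper-quartile factors and 1239 and 2804 with library size alone, where 2 members were higher and 13 lower. The median log2 change of the members was -0.17 in knockout cells, where that of all genes was -0.01, and -0.05 in control cells, where that of all genes was 0.01.

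STAT2 was lower in gels than in monolayers for both kinds of cells, and no gel library of the values given above reached a monolayer library. Its change was -0.60 ± 0.086 in knockout cells (adjusted p = 2.17e-05) and -0.44 ± 0.084 in control cells (adjusted p = 0.000753). PARP14, a mono-ADP-ribosyltransferase, had 22.4 and 23.9 CPM in knockout gels against 29.3 and 31.0 CPM in knockout monolayers, and 21.9 and 21.3 CPM in control gels against 30.8 and 30.5 CPM in control monolayers. It fell by 0.38 and 0.50 on the log2 scale (adjusted p = 0.000369 and 1.54e-05), with no overlap.

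OAS1 had 2.47 and 2.71 CPM in knockout gels against 5.32 and 5.56 CPM in knockout monolayers (log2 -1.07 ± 0.21, adjusted p = 0.000106). In control cells it had 3.12 and 2.63 CPM in gels against 4.23 and 5.89 CPM in monolayers (log2 -0.77 ± 0.20, adjusted p = 0.00396), a call lost without control gel 2 (adjusted p = 0.0596) or control monolayer 2 (0.0843). TRIM22 had 1.10 and 1.06 CPM in knockout gels against 1.63 and 2.56 CPM in knockout monolayers, and 1.537 and 1.152 CPM in control gels against 2.78 and 2.92 CPM in control monolayers. The gels were lower without overlap in both. Its changes were -0.97 ± 0.31 and -1.06 ± 0.27 (adjusted p = 0.0137 and 0.00362). The call in knockout cells was lost by DESeq2 (adjusted p = 0.0807) and without knockout gel 2 (0.0615) or knockout monolayer 2 (log2 -0.60, adjusted p = 0.27), and that in control cells without control gel 2 (0.0608).

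In knockout cells the low transcripts IRF9, IFI27 and XAF1 were also lower in gels. IFI27 had 1.48 and 1.38 CPM in knockout gels against 3.75 and 2.67 CPM in knockout monolayers (log2 -1.15 ± 0.26, adjusted p = 0.000713). IRF9 changed by -1.35 ± 0.40 (adjusted p = 0.00721), a call lost by DESeq2 (0.0559) and without knockout monolayer 1 (0.0724). XAF1, which promotes cell death, changed by -0.80 ± 0.25 (adjusted p = 0.0103), a call lost by DESeq2 (0.0646) and without knockout gel 2 (0.165) or knockout monolayer 2 (0.162).

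In control cells IRF1 was higher in gels (log2 0.51 ± 0.082, adjusted p = 1.25e-05). IFIH1 was lower in control gels, with 5.04 and 4.17 CPM against 6.16 and 6.76 CPM in control monolayers (log2 -0.47 ± 0.17, adjusted p = 0.0315), and this call was lost by DESeq2 (adjusted p = 0.124) and without any single control library (0.0511 to 0.253). OAS3 was higher in gels in both kinds of cells, by 0.38 in knockout cells and 0.33 in control cells (adjusted p = 0.000184 and 0.00141). ISG15 was higher in knockout gels than in knockout monolayers (log2 0.39, adjusted p = 0.000175) and not in control gels over control monolayers (log2 0.02, adjusted p = 0.892).

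**Figure D4:**
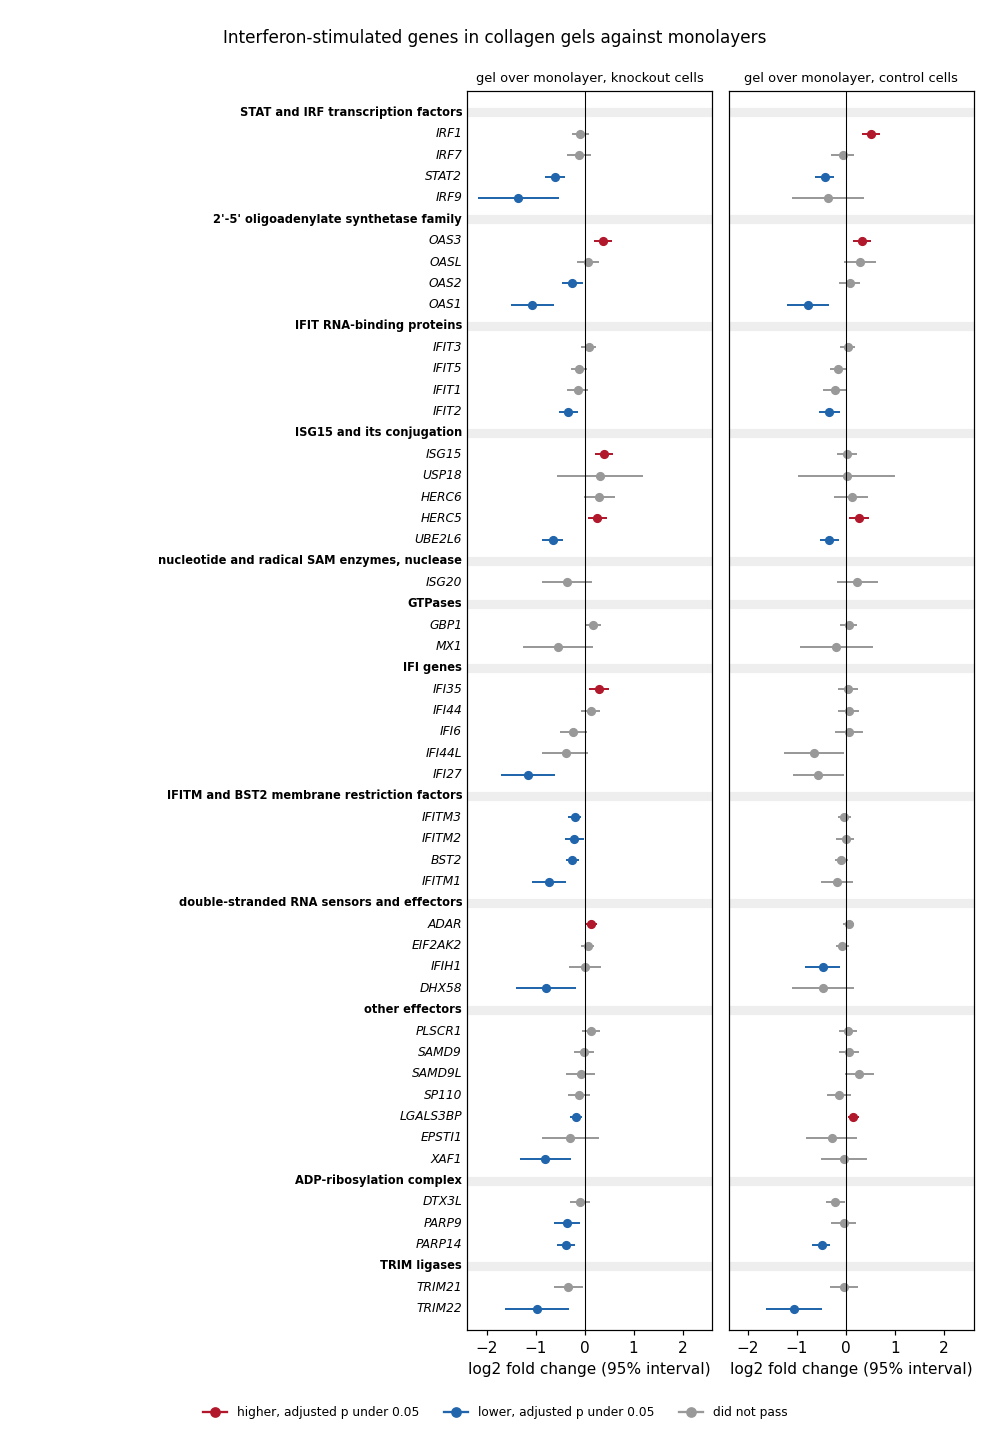
Log2 fold change of gel over monolayer for the 45 tested members (horizontal axis; points with 95% intervals), in knockout cells and in control cells, with members down the page. Most points of the knockout cells lie left of 0, with IRF9 farthest at -1.35, and TRIM22 lies farthest left in control cells at -1.06.

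Levels of different genes were compared per kilobase of exon, as the mean over the 8 libraries. LGALS3BP was highest at 123 CPM per kb, followed by IFITM3 at 90.4 and BST2 at 83.5. ISG15 had 29.5, ADAR 22.4 and IFIT3 21.3 CPM per kb. OASL had 4.46, IFI44L 0.250, MX1 0.130 and MX2 0.0138 CPM per kb.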

How the data were processed

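Polyadenylated RNA of MDA-MB-231 cells was measured in 8 libraries (TruSeq Stranded mRNA, per the labels' protocols). The authors deposited raw counts per gene symbol. Per the submitters' processing notes, FastQC 0.11.9, STAR 2.7.9a, featureCounts, R 4.1.1 and hg38 were used. The sources used here do not name the annotation, the strand setting or the featureCounts version. Counts of 5 members that share exon bases with a neighbour on the same strand and of 13 that do so on the opposite strand (GENCODE 29) are therefore uncertain. The 5 were IFIT2, IFITM1, IFITM2, IRF9 and TRIM22. The 13 were OAS1, IFIT2, ISG15, MX1, IFITM3, IRF1, RSAD2, PARP9, DTX3L, XAF1, CMPK2, SP110 and EIF2AK2.

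Counts were filtered with edgeR's filterByExpr (minimum count 10), which kept 15568 genes, scaled by TMM and fitted as 4 group means over all 8 libraries with edgeR 4.0.16 (limma 3.58.1, R 4.3.3), by the robust quasi-likelihood test with 4 residual degrees of freedom, two-sided, with Benjamini-Hochberg adjustment across the 15568 genes of a comparison. The test also draws on the spread across genes (median of 34.3 degrees of freedom in all). The biological coefficient of variation was 4.03%, and library totals of 15824504 to 23896899 counts put the limit that a count of 0 allows (3 counts) at 0.121 to 0.186 CPM, for counting error only. The labels do not say that the libraries of a group are separate cultures, so p values cover only the spread between libraries, which may be technical. The script was tested on simulated data. Named were the 20 members with the largest absolute change among those called with the knockout at 1 CPM or more, the 4 factors, and 5 members from each culture comparison, with other members and pathway genes added after their values were seen. The members, lists and tests were chosen with earlier results of these data known. Alternatives were DESeq2 1.42.0, other scalings and filters, only the 4 libraries compared, a replicate block, each library left out, and a correction for exon length and GC content. Replicate numbers are not stated to pair libraries, and the correlations of their deviations were -0.0777 to 0.11, so they were not paired.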

Additional observations from a re-analysis of the deposited data

Results flagged for a closer look

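In 5 genes the knockout effect in gels differed from that in monolayers by a test of the difference itself (edgeR, adjusted over all tested genes). Over all tested genes this difference was higher in 2.67% and lower in 3.94%. The count of 5 is therefore not read as a result about these lists. The differences on the log2 scale, gel minus monolayer, were -0.60 for IRF1 (adjusted p = 0.000434) and -0.32 for LGALS3BP (adjusted p = 0.00282) among the members. Among the other pathway genes they were -0.92 for UBA7 (adjusted p = 0.000313), 0.35 for SAMHD1 (adjusted p = 0.00998) and -0.35 for IFNGR2, a chain of the interferon gamma receptor (adjusted p = 0.042). Those of IRF1 and UBA7 passed in every alternative run, with a highest adjusted p of 0.0274 and 0.00815. That of SAMHD1 did not pass without control gel 1 (adjusted p = 0.0654), control gel 2 (0.0571) or knockout monolayer 2 (0.111). IFNGR2 had 31.5 and 36.5 CPM in knockout gels and 37.2 and 38.6 CPM in control gels, and 42.2 and 44.9 CPM in knockout monolayers and 37.0 and 39.2 CPM in control monolayers. Its difference did not pass under 11 alternatives, with adjusted p values up to 0.281, the highest without knockout gel 1 (log2 -0.21).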

How the results depend on the processing

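In the gene-level results of the named members and pathway genes, 3397 of 3587 values under an alternative kept their direction and their side of the threshold, 147 lost a call, 43 gained one and none changed sign. Of the calls with the knockout, 13 of 19 in gels and 12 of 16 in monolayers passed in every alternative. The replicate block moved 1 count of calls with the knockout: the difference between cultures was higher in 1 member, ISG15 (adjusted p = 0.0458), in place of 0, as it was with DESeq2 size factors, library size alone and the length and GC correction. The block changed no other call of a member with the knockout. The length and GC correction also left 1 lower difference in place of 2 and called 1 member, IFI35, lower in knockout monolayers in place of 0. For gels over monolayers in knockout cells, 3 members were higher with upper-quartile factors, 2 with library size alone and 2 by DESeq2, in place of 5, and 10 were lower by DESeq2 in place of 17. In control cells 2 were higher with upper-quartile factors, with library size alone, by DESeq2 and with only the 4 libraries compared, in place of 4, and 13 were lower with library size alone in place of 7. The cause was not tested. Leaving out 1 library, with the lone library of its group assumed to vary like the other groups, gave 13 to 16 higher and 2 to 4 lower in knockout gels, and 12 to 17 higher and 0 to 0 lower in knockout monolayers. It gave 2 to 6 higher and 11 to 17 lower for gels in knockout cells, 2 to 4 higher and 3 to 9 lower for gels in control cells, and 0 to 1 higher and 1 to 2 lower for the difference. The scalings moved the median of all genes by -0.085 to 0.019 on the log2 scale. Across 15180 genes, which are not independent replicates, the change with the knockout had a Spearman rho of -0.165 with exon length in monolayers and -0.035 in gels. USP18, with 7 to 21 counts in a library, MX1, with 17 to 29, and IRF9, with 10 to 41, had wide intervals at this depth.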
